A study of Homo sapiens with 12 samples.

Results

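The mTOR complex and nutrient sensing genes are 43 genes that encode the core of PI3K-AKT-mTOR signaling, the TSC complex, the Rag-Ragulator and GATOR machinery of the lysosome, and the translation factors and kinases that mTOR acts on. They were taken from a fixed list of symbols, matched to the Ensembl identifiers of the deposited count table, and all 43 were found among its 60107 identifiers. Their transcripts were counted by QuantSeq 3′ mRNA sequencing in 12 libraries from cells labeled U251P and U251T, with 3 vehicle and 3 carmofur libraries in each line. U251 is an established human glioblastoma line, and carmofur is a small molecule that inhibits acid ceramidase, the enzyme that releases sphingosine from ceramide. In both lines and both arms, cells were attached, deprived of serum for 16 h, and then kept for 24 h in complete medium that contained EGF, FGF and serum together with carmofur or with DMSO as the vehicle. The labels place carmofur only in the final 24 h, whereas the methods of the study place it in the period without serum as well, and both arms otherwise shared each step. For the final 24 h the study names medium with serum and does not name EGF or FGF. Each line stands for a single cell culture model, and the labels do not say what P and T mean, nor whether replicates were separate cultures, so the p-values measure only the spread between these libraries.

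The kinase mTOR works in 2 complexes. mTORC1, which contains RPTOR, promotes translation and growth when amino acids are plentiful, and mTORC2, which contains RICTOR and MAPKAP1, phosphorylates AKT. Growth factors reach mTORC1 through PI3K, PDPK1 and AKT, which restrain the TSC complex and so leave the GTPase RHEB active, while amino acids reach it through the Rag GTPases, which the Ragulator (LAMTOR) complex anchors on the lysosome and which the GATOR complexes regulate. In glioblastoma this pathway is often active through gain of growth factor receptors.

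The U251T libraries lacked part of the transcripts expected of their label. B2M, a gene that nearly all nucleated human cells express, was at 1 to 7 counts in each U251T library, and of 6 genes that nearly all human cells use 2 reached 10 counts in each U251T library and 6 in each U251P library. Of 12 glioma and astroglial markers, 9 reached 10 counts in each U251P library and 4 in each U251T library. NES, FABP7 and SOX2 were at no more than 3 counts in U251T, and S100B, at 4 to 14 counts in U251P, was at 0. VIM, at 7046 to 13534 counts per 1e6 of a library's total (CPM), CD44, at 554.3 to 805.4 CPM, SOX9 and FN1 were well detected in U251T. GFAP was at 20.9 to 83.0 CPM in U251T and at no more than 1 count in U251P. Pseudogenes held 10.8 to 12.4% of the U251T counts and 0.272 to 0.307% of the U251P counts. Total counts were 3295045 to 6350873 in U251P, 566061 to 2817379 in U251T with vehicle, and 383633 to 1078340 in U251T with carmofur. The species and identity of the cells behind the U251T libraries were not tested. For these reasons the U251P libraries are described first, and values of the libraries labeled U251T are given apart from them.

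QuantSeq captures only the 3′ end of a transcript, which makes counts independent of its length, and the CPM of different genes were compared directly. In the 6 U251P libraries the median member was at 25.9 CPM, with 4 members over 100 CPM, 23 between 20 and 100, 14 between 1 and 20, and 2 under 1. EIF4G1, the scaffold of the cap-binding complex, led at 749.7 to 840.2 CPM and stood apart from the next gene. EIF4B, an RNA helicase cofactor, followed at 115.6 to 142.6 CPM, AKT2 at 100.5 to 146.9 and MAPKAP1 at 93.7 to 119.2, and the ranges of these neighbors overlapped. At the low end RRAGB was at 2.57 to 4.83 CPM, WDR24 at 2.65 to 7.28 and DEPDC5 at 3.03 to 6.03, again with overlapping ranges. DEPTOR, an inhibitor within both complexes, and PRR5, an mTORC2 subunit, did not exceed 4 counts in any U251P library and were not tested. Between the highest and the lowest U251P library, the members that were tested differed by a median of 1.47-fold, and by more than 2-fold in 4 of them (WDR24, RRAGC, SLC38A9 and LAMTOR3). In bulk RNA, fewer cells that express a gene and less of its RNA per cell cannot be told apart.

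**Figure D1:**
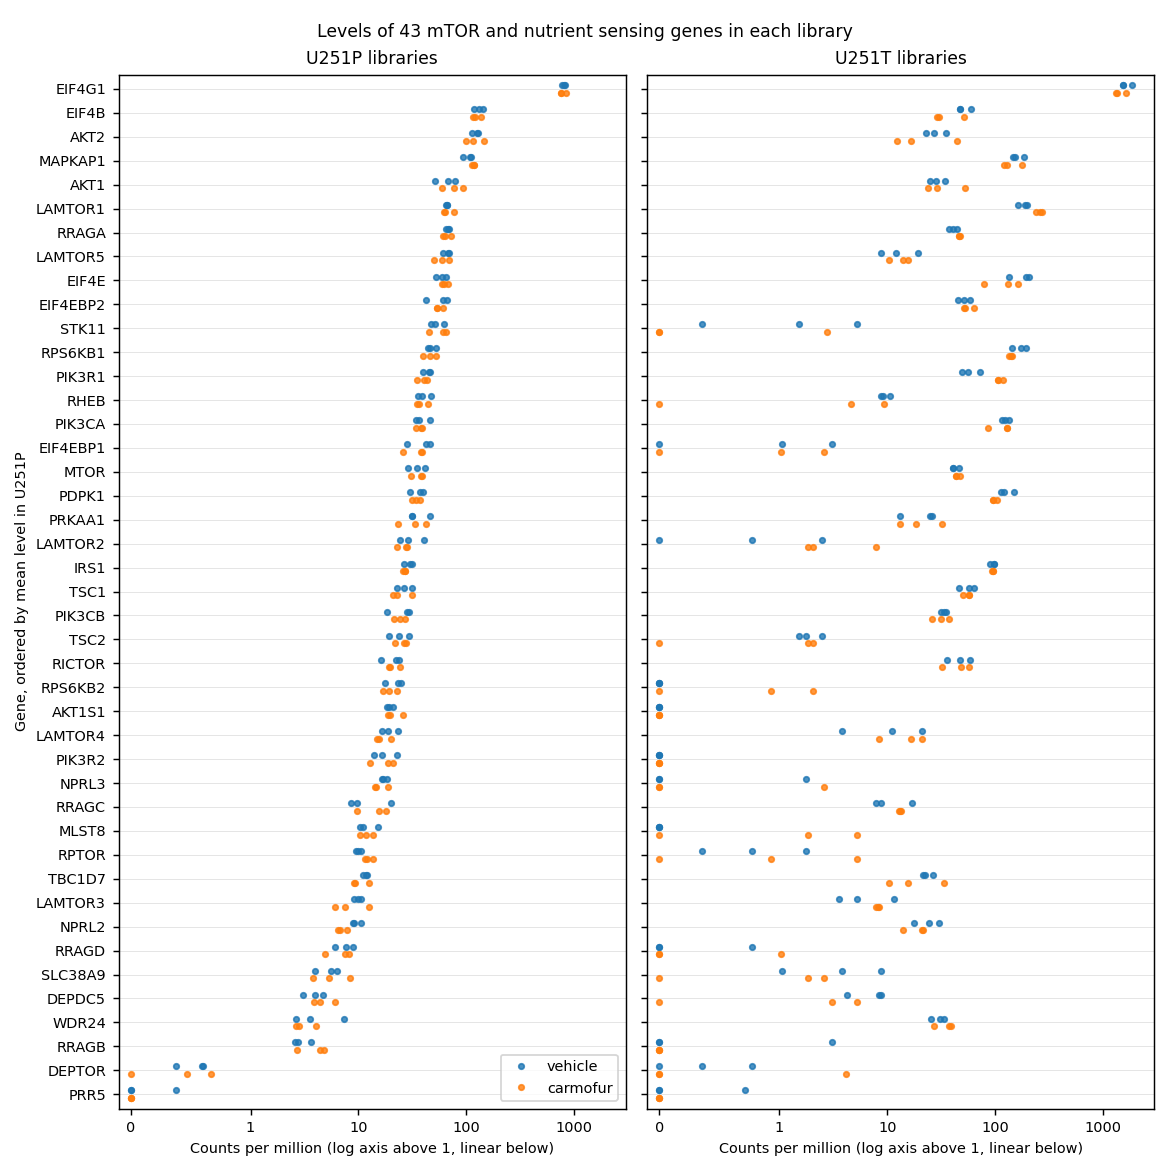
Each point is 1 library, with the gene on the vertical axis in order of its mean level in U251P and CPM on the horizontal axis (logarithmic above 1, linear below); blue is vehicle and orange carmofur. The U251P points of a gene lie close together in both arms with EIF4G1 at 749.7 to 840.2 CPM, while in U251T many genes are near 0.

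The promoters of the members are shown because a group of them shares a motif of the transcription factors that mTORC1 regulates. The E-box CACGTG, a palindrome, is the core of the sites bound by TFEB, TFE3 and MITF, which mTORC1 keeps out of the nucleus in fed cells, and MYC and USF proteins bind the same letters. In the RefSeq promoters of GRCh38.p14, 36 of the 43 members had an entry. Within the 250 bases before the start, CACGTG was found in 8 of these 36 (22.2%) at 11 places, against 6.34% of 35093 promoters of all genes and 7.38% of the 22180 promoters of protein-coding genes. The units differ, since only the first listed promoter of a member was taken while a background gene could enter with several distinct promoters. The forkhead motif GTAAACA, searched on both strands, was found in the member PIK3CA alone (2.98% of all promoters), and the ATF4-type motif TGATGNAA, searched likewise, in TSC2 alone (3.15%). In the TSC2 promoter the ATF4-type motif overlapped the E-box. These are matches of letters and not measured binding. The start is that of the RefSeq entry used. By GENCODE 29 positions, both EIF4E sites, the EIF4B and TSC2 sites and the EIF4G1 site at 67 bases lay inside the gene. The LAMTOR4 E-box spanned the GENCODE start. The sites are printed 5′ to 3′ on the strand of the gene with the E-box in capitals.
EIF4B, 22 bases before the start, chr12:53006424-53006449, plus strand: ccgctataatCACGTGattgcctcat
EIF4E, 225 bases before the start, chr4:98929343-98929368, minus strand: acccatcggcCACGTGaccagtcctt
EIF4E, 72 bases before the start, chr4:98929190-98929215, minus strand: acatatccgtCACGTGgccagaagct
EIF4G1, 144 bases before the start, chr3:184314452-184314477, plus strand: ctgtggctgtCACGTGacggggcggg
EIF4G1, 67 bases before the start, chr3:184314529-184314554, plus strand: ctgcgccggtCACGTGggggcgccgg
LAMTOR1, 165 bases before the start, chr11:72103447-72103472, minus strand: ttccccgcatCACGTGcttgcgtgta
LAMTOR4, 14 bases before the start, chr7:100148894-100148917, plus strand: cggctgcaagCACGTGaccggggc
RRAGB, 115 bases before the start, chrX:55717624-55717649, plus strand: gagccaaggcCACGTGatgatgacag
RRAGB, 25 bases before the start, chrX:55717714-55717739, plus strand: tagcggcagtCACGTGacagactccg
RRAGC, 112 bases before the start, chr1:38859869-38859894, minus strand: gtgattccggCACGTGacggggcacc
TSC2, 114 bases before the start, chr16:2047861-2047886, plus strand: gcggccccgtCACGTGatgcaaggat

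Of the genes with an E-box, LAMTOR1 was the 1 called for carmofur as the comparison was planned, in U251T, a call that was lost in 9 of 12 alternatives. The whole 250 bases before its start are shown for that reason, at chr11:72103298-72103547 on the minus strand of GRCh38.p14 with the E-box in capitals.
LAMTOR1 upstream: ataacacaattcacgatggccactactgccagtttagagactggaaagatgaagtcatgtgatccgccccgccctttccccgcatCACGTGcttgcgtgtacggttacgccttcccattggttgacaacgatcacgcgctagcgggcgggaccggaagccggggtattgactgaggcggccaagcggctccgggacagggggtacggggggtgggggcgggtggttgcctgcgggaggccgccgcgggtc

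In U251P, no member passed the test of carmofur against vehicle. Of 41 tested, 0 had an adjusted p-value under 0.05 by edgeR's quasi-likelihood test, as did 0% of the 11426 genes tested, and DESeq2 likewise called 0 members. Before adjustment, 0 members and 3.52% of all genes had a p-value under 0.05, and the smallest among the members was 0.0759 for MAPKAP1 (edgeR). The edgeR log2 fold changes ran from -0.41 (NPRL2) to 0.40 (RRAGB) with a median of -0.02, where the median of all genes was -0.00075, and 16 members were on the higher side and 25 on the lower. The adjusted p-values of the members were 0.999 or above. The 95% interval of the change lay within 1.5-fold either way for 28 members and within 2-fold for 39, the exceptions being RRAGB and WDR24. The precision followed the level, with an interval 0.38 wide on the log2 scale for EIF4G1 and 1.75 for WDR24. The treatment groups were fully separated in 3 of the 41 members (7.32%), against 8.54% of all genes. No alternative processing gave a call for a member, including each of the 6 libraries left out in turn.

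**Figure D2:**
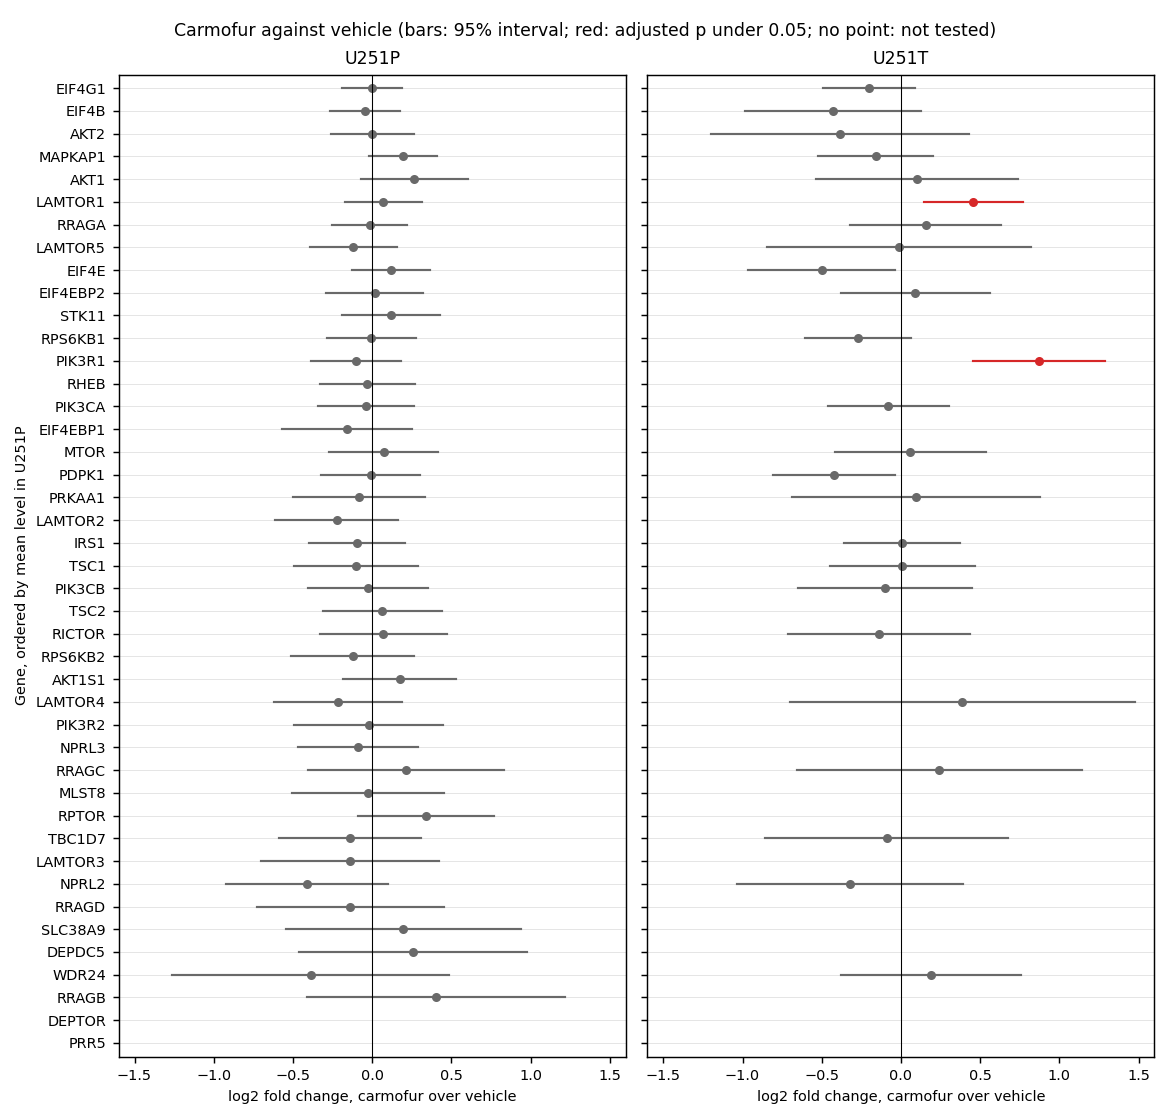
Log2 fold change of carmofur over vehicle for each member by edgeR, with 95% intervals, in U251P (left) and U251T (right); red marks an adjusted p-value under 0.05 and a missing point a gene that was not tested. In U251P the values lie between -0.41 and 0.40, and in U251T the red points are PIK3R1 at 0.87 and LAMTOR1 at 0.46.

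Among the subunits of the complexes, MTOR (ENSG00000198793, chromosome 1, 11106535 to 11262507, minus strand, GENCODE 29 on GRCh38), the catalytic kinase, was at 34.9, 41.6 and 28.9 CPM with vehicle and at 30.5, 39.1 and 38.1 with carmofur in U251P. The groups overlapped, and the interval of the log2 change was -0.27 to 0.42. RPTOR, the scaffold of mTORC1, was at 9.48, 10.6 and 9.88 CPM with vehicle and at 13.5, 11.6 and 12.1 with carmofur. MAPKAP1, a subunit of mTORC2, was at 110.2, 108.0 and 93.7 CPM with vehicle and at 119.2, 116.9 and 112.9 with carmofur. In both genes each carmofur library lay above each vehicle library, and neither difference passed the test. RICTOR, the scaffold of mTORC2, was at 16.2, 24.0 and 22.2 CPM with vehicle and 19.8, 24.5 and 19.3 with carmofur, and the groups overlapped. MLST8, which both complexes share, ranged from 10.3 to 15.2 CPM and AKT1S1, an inhibitor of mTORC1 also called PRAS40, from 18.4 to 25.7. Over the 6 tested subunits the log2 fold changes were -0.02 to 0.34. RPTOR, MAPKAP1 and NPRL2 were singled out after their values were seen.

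In the TSC complex, a GTPase activating complex for RHEB, TSC1 was at 31.4, 22.8 and 26.4 CPM with vehicle and 20.9, 23.0 and 31.1 with carmofur. TSC2, its catalytic subunit, was at 23.9, 19.4 and 29.3 CPM with vehicle and 27.4, 21.8 and 26.5 with carmofur. TBC1D7, the third subunit, was at 11.8, 12.1 and 11.02 CPM with vehicle and 12.6, 9.24 and 9.17 with carmofur. All 3 subunits overlapped between the groups, as did RHEB at 35.9 to 46.7 CPM with vehicle and 34.9 to 44.2 with carmofur. The log2 fold changes of these 4 genes lay between -0.14 and 0.06.

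In the growth factor arm, the 8 members had log2 fold changes from -0.10 to 0.27. AKT1 was at 68.3, 78.0 and 50.9 CPM with vehicle and 94.0, 76.4 and 59.6 with carmofur, and AKT2, the more abundant of the pair, at 129.5, 112.6 and 125.6 with vehicle and 146.9, 100.5 and 115.6 with carmofur. Both genes overlapped between the groups. PDPK1, the kinase that activates AKT at the membrane, was at 30.0 to 39.5 CPM with vehicle and 31.6 to 37.6 with carmofur. The catalytic PI3K subunit PIK3CA was at 34.6 to 46.4 and 34.4 to 38.9 CPM, and PIK3CB at 18.6 to 29.6 and 21.2 to 27.1, in the same order. PIK3R1, the regulatory subunit p85 alpha, was at 45.6, 46.4 and 39.7 CPM with vehicle and 40.8, 43.7 and 35.2 with carmofur, and the groups overlapped. PIK3R2 was at 14.0 to 22.6 and 12.9 to 21.0 CPM. IRS1, the adaptor of the insulin and IGF receptors, was at 26.4 to 31.3 CPM with vehicle and 25.8 to 27.2 with carmofur.

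In the amino acid arm, RRAGA and RRAGB are alternatives for one side of the Rag dimer, and RRAGC and RRAGD for the other. RRAGA was at 64.8 to 69.5 CPM with vehicle and 60.5 to 72.0 with carmofur and gave 95.8% ± 0.897 (SD, n = 3) of the counts of its pair with vehicle and 94.2% ± 1.93 (SD, n = 3) with carmofur. RRAGC was at 19.9, 9.71 and 8.55 CPM with vehicle and 18.1, 15.6 and 9.65 with carmofur, so that vehicle library 1 and carmofur libraries 1 and 2 were high and the others low in both arms. Its share of the RRAGC and RRAGD counts was 61.2% ± 8.12 (SD, n = 3) with vehicle and 67.1% ± 10.1 (SD, n = 3) with carmofur. Of the 5 Ragulator subunits, LAMTOR1 and LAMTOR5 were the most abundant, at 62.7 to 76.7 and 50.6 to 69.7 CPM over the 6 libraries. LAMTOR2 was at 24.5, 41.0 and 29.1 CPM with vehicle and 27.7, 22.7 and 28.2 with carmofur. SLC38A9, the arginine sensing transporter of the lysosome, was at 3.99 to 6.37 CPM with vehicle and 3.78 to 8.40 with carmofur. In the GATOR complexes, NPRL2 was at 8.89, 9.10 and 10.6 CPM with vehicle and 6.77, 7.90 and 6.51 with carmofur. Each carmofur library of NPRL2 lay below each vehicle library. This was the lowest fold change among the members, it did not pass the test, and its interval was -0.92 to 0.10 on the log2 scale. NPRL2 overlaps CYB561D2 on the other strand. NPRL3, of the same GATOR1 complex, was at 16.6 to 18.5 CPM with vehicle and 14.2 to 18.9 with carmofur, and the groups overlapped.

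Among the effectors of translation, EIF4E, the cap-binding protein, was at 65.2, 59.5 and 53.0 CPM with vehicle and 67.9, 59.3 and 62.0 with carmofur. EIF4EBP1, an inhibitor of EIF4E that mTORC1 phosphorylates, was at 28.4, 46.4 and 42.4 CPM with vehicle and 38.4, 25.7 and 39.1 with carmofur. EIF4EBP2, its paralogue, was at 66.3, 60.4 and 42.4 with vehicle and 60.3, 53.4 and 53.1 with carmofur. The groups of all 3 genes overlapped. EIF4EBP1 gave 41.2% ± 10.2 (SD, n = 3) of the counts of the EIF4EBP1 and EIF4EBP2 pair with vehicle and 37.9% ± 5.03 (SD, n = 3) with carmofur, a difference smaller than the spread between vehicle libraries. RPS6KB1, the S6 kinase, gave 68.6% ± 3.45 (SD, n = 3) of the RPS6KB1 and RPS6KB2 counts with vehicle and 70.1% ± 2.65 (SD, n = 3) with carmofur. EIF4B and EIF4G1 overlapped between the groups too. Of the energy sensing kinases, STK11 (LKB1) was at 46.7 to 62.5 CPM with vehicle and 44.9 to 64.4 with carmofur, and PRKAA1, a catalytic subunit of AMPK, at 31.4 to 46.4 and 23.4 to 42.5.

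The 59 other genes of the pathway, which include the sestrins, AKT phosphatases and further subunits, were counted in the same way. In U251P, 0 of 55 tested were called by edgeR, and 1 had an unadjusted p-value under 0.05, EIF4A1, an RNA helicase, at 0.46 on the log2 scale (standard error 0.215, 95% interval 0.01 to 0.92, unadjusted p = 0.0473, adjusted p = 0.999, edgeR), and its groups overlapped. EIF4A1 overlaps SENP3-EIF4A1 on the same strand, and how the counting divided their reads is not given in the sources used here. SESN2 and DDIT4, which restrain mTORC1 under amino acid or oxygen stress, spread far more between U251P replicates than the members did. SESN2 was at 25.7, 124.1 and 91.2 CPM with vehicle and 24.2, 20.3 and 83.7 with carmofur. DDIT4 was at 70.1, 482.5 and 308.3 CPM with vehicle and 52.9, 45.5 and 320.4 with carmofur. In both genes vehicle libraries 2 and 3 and carmofur library 3 were high, and the remaining libraries were low. ULK1, the autophagy kinase that mTORC1 inhibits, had the same libraries on its high side, at 28.2, 48.3 and 49.8 CPM with vehicle and 27.9, 26.0 and 46.6 with carmofur, and RRAGC had them on its low side. SESN2, DDIT4 and ULK1 were singled out for U251P after their values were seen.

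**Figure D3:**
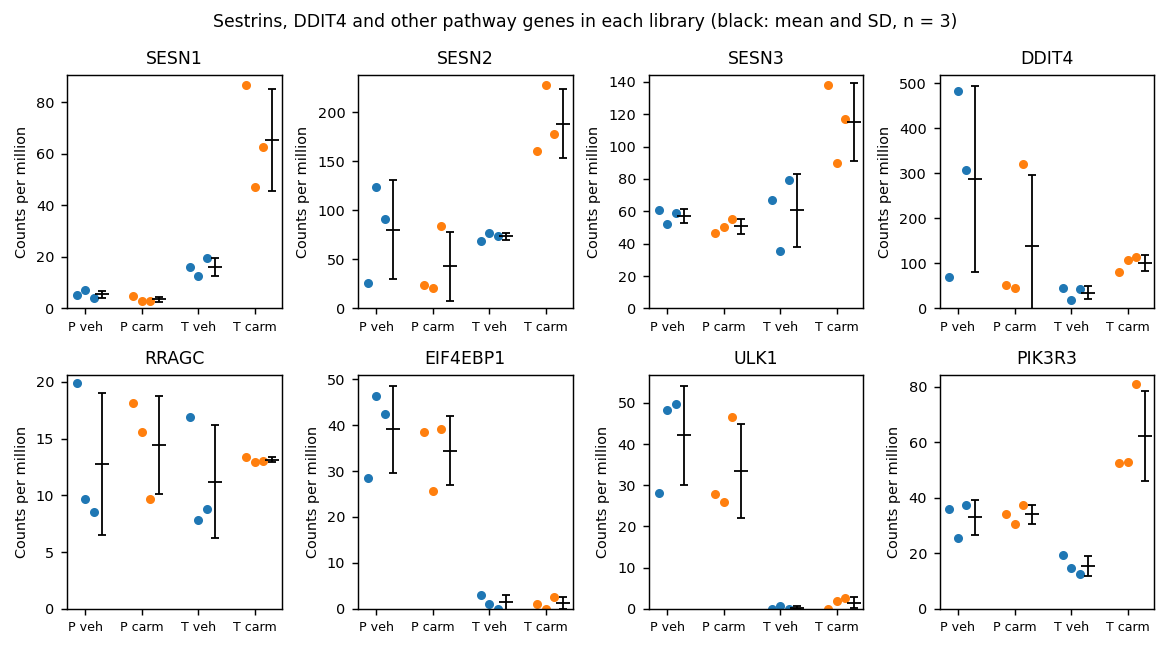
CPM of 8 pathway genes in each library (P, U251P; T, U251T; veh, vehicle; carm, carmofur), with the mean and SD of 3 libraries in black; a bar that reaches below 0 is cut at the axis. In U251P the points of SESN2 and DDIT4 fall into a high and a low set within each arm, and in U251T each carmofur library of the 3 sestrins and DDIT4 lies above each vehicle library.

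In the libraries labeled U251T, 25 members could be tested, and 2 passed the test, both higher with carmofur. That is 8% of the tested members, where 17.1% of the 7204 genes tested were called, 8.88% higher and 8.2% lower. The 18 members that were not tested did not exceed 30 counts in any library, and AKT1S1 and PIK3R2 had 0 counts in all 6 libraries. Before adjustment, 4 of the 25 members (16%) and 29.9% of all genes had a p-value under 0.05. The groups did not overlap in 5 members (20%) against 32.3% of all genes. The median log2 fold change of the members was -0.01, with 12 higher and 13 lower, and the median of all genes was 0.01. The interval of the change lay within 1.5-fold for 7 members and within 2-fold for 20.

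PIK3R1 (ENSG00000145675, chromosome 5, 68215720 to 68301821, plus strand, GENCODE 29 on GRCh38) was at 73.0, 49.3 and 56.5 CPM with vehicle and 106.2, 105.7 and 117.3 with carmofur in U251T, the counts being 95, 139 and 32 against 103, 114 and 45. Each carmofur library lay above each vehicle library. The log2 fold change was 0.87 (standard error 0.198, 95% interval 0.45 to 1.29, unadjusted p = 0.000359, adjusted p = 0.00484, edgeR). It was 0.72 to 1.03 when each library was left out in turn, and its call held in 12 of 12 alternatives with adjusted p-values up to 0.0242. LAMTOR1 (ENSG00000149357, chromosome 11, 72085895 to 72103387, minus strand), the Ragulator subunit that anchors the complex in the lysosomal membrane, was at 187.6, 198.4 and 164.3 CPM with vehicle and 237.2, 263.4 and 271.1 with carmofur. These groups did not overlap either. Its log2 fold change was 0.46 (standard error 0.149, 95% interval 0.14 to 0.77, unadjusted p = 0.00669, adjusted p = 0.0417, edgeR), and LRTOMT overlaps it on the other strand, so that without a stated use of strand their reads cannot be told apart. The LAMTOR1 call held in 3 of 12 alternatives. In the other 9 the log2 fold change was 0.37 to 0.52, against 0.46, and the call was lost. These were DESeq2 (0.46, adjusted p = 0.0723), the fit without the filter on low counts (0.38, adjusted p = 0.224), a mean of at least 5 CPM (0.44, adjusted p = 0.0572) and all 12 libraries in a single fit (0.39, adjusted p = 0.145). The call was also lost when vehicle library 1 (adjusted p = 0.134) or 3 (0.142) or carmofur library 1 (0.0674), 2 (0.138) or 3 (0.113) was left out.

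PDPK1 and EIF4E, on the lower side, had unadjusted p-values under 0.05 and did not pass the adjustment as the comparison was planned. PDPK1 was at 120.7, 150.8 and 113.1 CPM with vehicle and 95.9, 96.4 and 104.3 with carmofur, without overlap. On the log2 scale the change was -0.42 (standard error 0.183, 95% interval -0.81 to -0.04, unadjusted p = 0.0341, adjusted p = 0.129, edgeR). EIF4E was at 194.5, 207.3 and 134.3 CPM with vehicle and 131.0, 163.2 and 78.2 with carmofur, and the groups overlapped. On the log2 scale the change was -0.50 (standard error 0.220, 95% interval -0.96 to -0.04, unadjusted p = 0.0355, adjusted p = 0.133, edgeR). It passed when vehicle library 3 (-0.66, adjusted p = 0.0457) or carmofur library 2 (-0.78, adjusted p = 0.0230) was left out and without the filter on low counts (adjusted p = 0.0261). In all, EIF4E passed in 4 alternatives and PDPK1 in 1. The replicate block, whose values are given in the last section, was among them for both. EIF4EP1, a processed copy of EIF4E, held 34 counts over the U251T libraries and 0 over the U251P libraries, and how the counting divided reads between them is not given in the sources used here. MTOR was at 40.7, 41.2 and 45.9 CPM with vehicle and 43.3, 43.6 and 46.9 with carmofur, RICTOR at 36.1 to 58.2 and 32.0 to 57.3, and EIF4G1 at 1531 to 1865 and 1327 to 1627, and each of these overlapped. RRAGA and RPS6KB1 had groups apart without passing the test, RRAGA at 37.1 to 44.6 CPM with vehicle and 46.4 to 46.9 with carmofur and RPS6KB1 at 143.8 to 194.3 and 134.5 to 143.4.

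**Figure D4:**
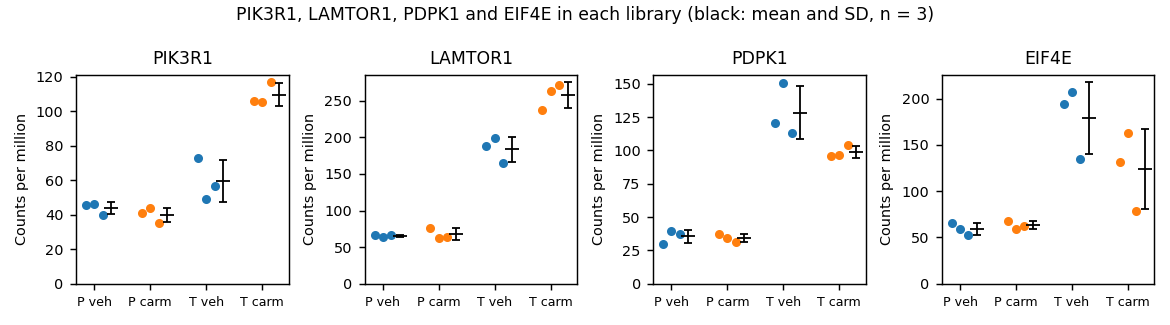
CPM of PIK3R1, LAMTOR1, PDPK1 and EIF4E in each library (P, U251P; T, U251T; veh, vehicle; carm, carmofur), with the mean and SD of 3 libraries in black. In U251T the carmofur libraries of PIK3R1 (105.7 to 117.3 CPM) lie above its vehicle libraries (49.3 to 73.0), and in U251P the groups overlap for all 4 genes.

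Of the other pathway genes in U251T, 9 of 36 tested were called (25%), 8 higher and 1 lower, where the 17.1% of all genes called split into 8.88% and 8.2%. The sestrins, stress-induced proteins that hold mTORC1 inactive through GATOR2, were all higher with carmofur. SESN1 was at 16.1, 12.4 and 19.4 CPM with vehicle and 86.6, 47.3 and 62.6 with carmofur, SESN2 at 69.2, 76.7 and 74.2 with vehicle and 159.8, 227.2 and 177.3 with carmofur, and SESN3 at 66.9, 35.5 and 79.5 with vehicle and 138.2, 90.0 and 117.3 with carmofur. For each of the 3 the groups did not overlap. The log2 fold changes were 2.11 for SESN1 (standard error 0.290, adjusted p = 6.08e-05, edgeR), 1.35 for SESN2 (standard error 0.185, adjusted p = 5.67e-05) and 1.01 for SESN3 (standard error 0.253, adjusted p = 0.0091). SESN3 lost its call when carmofur library 1 was left out (0.84, adjusted p = 0.0809). DDIT4 (REDD1) was at 45.4, 18.1 and 42.4 CPM with vehicle and 80.4, 108.5 and 114.7 with carmofur, and it rose by 1.62 on the log2 scale (standard error 0.289, adjusted p = 0.000732, edgeR), and with all 12 libraries in a single fit the change was 1.58 with an adjusted p of 0.102. PIK3R3, a regulatory PI3K subunit related to PIK3R1, was at 19.2, 14.6 and 12.4 CPM with vehicle and 52.6, 52.9 and 80.8 with carmofur, and it rose by 1.90 on the log2 scale (standard error 0.281, adjusted p = 0.000115, edgeR). EIF4G3, a paralogue of EIF4G1, rose by 0.76 (standard error 0.152, adjusted p = 0.00197, edgeR) on the log2 scale. EIF4A2 was also called higher, and PHLPP1, an AKT phosphatase, lower. When carmofur library 1 was left out, 5 of the other pathway genes were called. The depth differed with the treatment in U251T, and the summed level of the 12 glioma and astroglial markers was 12180 to 14940 CPM with vehicle and 8616 to 10890 with carmofur, with NES, S100B, FABP7, SOX2 and CHI3L1 at no more than 3 counts. In this list VIM fell by 0.67 and GFAP by 0.96 on the log2 scale, while CD44 (0.39, adjusted p = 0.0422), SOX9 (0.55, adjusted p = 0.0192) and FN1 (0.56, adjusted p = 0.0398) rose (edgeR). The 3 neuronal markers summed to 1.07 to 14.6 CPM with vehicle and 16.7 to 33.0 with carmofur, from at most 19 counts of a gene in a library. In the same order, fibroblast markers summed to 17.0 to 42.4 and 28.7 to 42.3 CPM, and immune markers to 8.52 to 20.0 and 18.25 to 18.6. Epithelial markers summed to 5.32 to 17.7 and 6.49 to 13.0 CPM, and endothelial markers to at most 0.93 in either arm. Their part in these results was not tested.

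Whether carmofur acted differently on a member in the 2 lines was tested by the interaction over all 12 libraries. The filter over all 12 libraries kept 41 members, while 25 could be tested within U251T. Members with few U251T counts, or with 0 such as AKT1S1 and PIK3R2, were kept through their U251P counts. For these the fit holds little information on a difference in effect. The 13070 genes tested were filtered in the same way. Of 41 members 1 passed (2.44%), against 4.28% of the 13070 genes tested. This was PIK3R1, whose effect was 0.90 higher on the log2 scale in U251T than in U251P (standard error 0.252, 95% interval 0.39 to 1.42, unadjusted p = 0.00103, adjusted p = 0.0314, edgeR). It was lost in 8 of 12 fits that left out a library, namely U251P vehicle 1 (0.88, adjusted p = 0.0738) or 2 (0.87, 0.0774), U251P carmofur 1 (0.89, 0.0747) or 3 (0.83, 0.0880), U251T vehicle 2 (0.79, 0.0941) or 3 (0.82, 0.0513), and U251T carmofur 1 (0.92, 0.0676) or 2 (0.87, 0.0702). EIF4E had the opposite sign at -0.69 (standard error 0.289, 95% interval -1.27 to -0.10, unadjusted p = 0.0233, adjusted p = 0.220, edgeR) and passed when U251T vehicle 3 was left out (-0.89, adjusted p = 0.0351). MLST8 and RPS6KB2 also had unadjusted p-values under 0.05 but held 0 counts in the U251T vehicle libraries and at most 2 in a U251T carmofur library. DEPDC5, of GATOR1, did too, its U251T counts being 11, 12 and 5 against 3, 0 and 2 in the carmofur libraries. Of the other pathway genes 6 of 56 passed (10.7%), SESN1, SESN2, SESN3, DDIT4, PIK3R3 and PDCD4, each with a larger value in U251T. PDCD4 was called in neither line on its own. This interaction used U251T libraries that went against their label.

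Between the lines in vehicle, 33 of 40 tested members differed (82.5%), against 86.9% of the 12047 genes tested. Of these, 14 were higher and 19 lower in U251T, where 39.3% of all genes were higher and 47.6% lower. The median log2 difference of the members was -0.71 and that of all genes -0.33. A gene that the filter kept through its counts in a single line could only come out higher in that line. MLST8, AKT1S1, RPS6KB2, PIK3R2, STK11 and EIF4EBP1 were kept in this way through U251P. The split of directions and the median therefore depend in part on the filter. STK11 was at 46.7 to 62.5 CPM in U251P and 0.35 to 5.30 in U251T, from 2, 1 and 3 counts, a difference of -5.31 on the log2 scale (standard error 0.410, adjusted p = 8.98e-13, edgeR). EIF4EBP1, at 4, 3 and 0 counts in U251T, differed by -4.68 (standard error 0.435), LAMTOR5 by -2.28 (standard error 0.230) and AKT2 by -2.25 (standard error 0.186), with edgeR's adjusted p-values of 5.33e-11, 2.74e-10 and 4.50e-12. On the other side PDPK1 was 1.85 higher in U251T (standard error 0.173), RPS6KB1 1.78 (standard error 0.152), PIK3CA 1.64 (standard error 0.162) and LAMTOR1 1.46 (standard error 0.149), and none of these 4 overlapped between the lines. MLST8, AKT1S1, RPS6KB2 and PIK3R2 had 0 counts in the U251T vehicle libraries. Set against a floor of 3 counts over that group, their CPM were at least 19.3-fold, 30.1-fold, 33.9-fold and 28.5-fold lower than in U251P. Genes that nearly all cells use were far lower too, with differences of -9.60 for B2M, -4.26 for GAPDH and -4.68 for EEF2 on the log2 scale. Since the identity of these cells was not tested, the values describe counts against the human genome and not levels of expression. Beside them RPTOR, the subunit that defines mTORC1, was at 1 count in each U251T vehicle library, while RICTOR, which defines mTORC2, was at 47, 164 and 27 counts. MTOR itself was at 28.9 to 41.6 CPM in U251P and 40.7 to 45.9 in U251T, and its difference did not pass the test (0.24, adjusted p = 0.258, edgeR).

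The response of the members with an E-box was as follows. In U251P the 8 genes shown above had log2 fold changes from -0.21 (LAMTOR4) to 0.40 (RRAGB), and 0 were called. In U251T 6 of them could be tested, from -0.50 (EIF4E) to 0.46 (LAMTOR1), and 1 was called. EIF4E and EIF4G1, with 2 sites each, were at 0.12 and -0.0024 in U251P and at -0.50 and -0.20 in U251T.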

How the data were processed

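Total RNA was extracted by the authors and made into QuantSeq FWD libraries, which were read from 1 end over 75 bases. Trimming and mapping used the BlueBee pipeline of Lexogen, with hg38 as the build per the labels. The deposited values are raw read counts, in whole numbers, for each Ensembl gene. The counting tool, annotation release, use of strand and treatment of PCR copies are not given in the sources used here. Of 60107 identifiers, 56104 had a symbol, and positions came from GENCODE 29 on GRCh38.

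Groups were taken from the labels. Each comparison was fitted on its own libraries with edgeR (version 4.0.16) in R (version 4.3.3), using TMM, filterByExpr, the quasi-likelihood test and Benjamini-Hochberg adjustment over all genes tested, and calls were made at an adjusted p-value of 0.05. The steps were tested on simulated data. With 3 libraries against 3 the smallest two-sided p of an exact permutation test is 0.1, so p-values come from edgeR. Groups were said not to overlap when each CPM of one exceeded each of the other. Promoters were RefSeq sequences of GRCh38.p14. Tables were made with pandas (version 2.3.3) and figures with matplotlib (version 3.10.9) in Python (version 3.11.15).

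The members and lists were chosen with earlier results of these data known. Full statistics were given for members with an unadjusted p-value under 0.05 (at most 8 in a comparison) and for at most 6 other pathway genes in a comparison. Alternatives were DESeq2 (version 1.42.0), upper-quartile normalization, no filter, a mean of at least 5 CPM, the replicate number as a block, 1 fit of all 12 libraries, and leaving out each library in turn. The counts of other pathway genes under these were added after the data were seen. Each library was counted as a replicate, and chi-square values between replicates of a group were 1.72 to 11.5 per degree of freedom. These values cannot tell separate cultures from separate library preparations of a single culture. Some genes of the lists are counted but not reported by name here.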

Additional observations from a re-analysis of the deposited data

Results flagged for a closer look

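The effect of carmofur on 7 genes differed between the lines by edgeR's test of the interaction at an adjusted p-value of 0.05. The value is the log2 effect in U251T minus that in U251P, and the U251T libraries went against their label. It was 0.90 for PIK3R1 (adjusted p = 0.0314), 2.59 for SESN1 (adjusted p = 0.000152), 1.75 for PIK3R3 (adjusted p = 0.000566) and 2.19 for SESN2 (adjusted p = 0.00905). SESN2 did not pass with DESeq2 (2.24, adjusted p = 0.118). It was 1.13 for SESN3 (adjusted p = 0.0103), which did not pass without U251T vehicle library 2 (0.81, adjusted p = 0.0820) or carmofur library 1 (0.94, adjusted p = 0.0901). It was 2.595 for DDIT4 (adjusted p = 0.0399) and 2.33 for PDCD4, an inhibitor of EIF4A (adjusted p = 0.0461). The U251P effect was -0.10 for PIK3R1, -0.56 for SESN1, 0.05 for PIK3R3, -0.91 for SESN2 and -0.15 for SESN3. For DDIT4 it was -1.03 and for PDCD4 -1.01, and none of these was called. Within U251T, PDCD4 was not called either (1.33, adjusted p = 0.0513, edgeR), and its groups overlapped. Its U251T counts were 31, 14 and 20 with vehicle and 48, 47 and 13 with carmofur. In U251P, DDIT4 was at 70.1, 482.5 and 308.3 CPM with vehicle and 52.9, 45.5 and 320.4 in the carmofur libraries, and PDCD4 at 13, 16 and 23 counts and at 14, 1 and 15. DDIT4 did not pass in 10 of 17 alternatives, nor PDCD4 in 11 of 17.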

How the results depend on the processing

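In U251P, 0 members were called under each of the 12 alternatives, while the count over all genes was 0 as reported, 19 without the filter on low counts, 1 with the replicate block and 0 to 1 with each library left out, and 2 other pathway genes were called without the filter. In U251T, PIK3R1 was the 1 member called with DESeq2, with a mean of at least 5 CPM and with all 12 libraries in a single fit, and 1 to 2 were called with each library left out. The other pathway genes called in U251T were 5 to 8 with each library left out. The labels do not say whether libraries with the same replicate number shared a culture or batch. The correlation of same-numbered deviations was 0.254, -0.0212 and 0.316 in U251P and 0.0846, 0.344 and 0.0828 in U251T. Between different numbers it was -0.3229 to 0.0913 in U251P and -0.1925 to 0.1079 in U251T. Not every library correlated best with its own number. The planned fits did not use the number, and a shared batch was not tested. With the replicate block, U251T had 2078 genes, 5 members (PIK3R1, LAMTOR1, EIF4E, PDPK1 and EIF4G1) and 15 other pathway genes called, with adjusted p-values of 0.0318 for PDPK1 and 0.00225 for EIF4E. For the interaction, 0 to 1 members, 3 to 7 other pathway genes and 367 to 721 genes were called with each library left out. Where a call was lost, the cause was not tested. The 95% interval lay within 2-fold for 39 of the 41 members tested in U251P and for 20 of the 25 tested in the shallower U251T libraries.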
